A study of Mus musculus with 25 samples.

Results

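Levels of 7 mouse genes for secreted peptides were followed by single tumor in 25 biopsies of YUMM1.7 melanomas: the prolactin family genes Prl2a1, Prl2c2, Prl2c3, Prl6a1 and Prl8a9, the exocrine gland peptide gene Esp15 and the natriuretic peptide gene Nppb. They are 7 of the 23940 genes of the deposited table, and they were selected on their measured values, because they were far higher in the resistant tumors of batch 1 than in untreated tumors. Their levels in those tumors are therefore a description, with no test. Comparisons without those tumors were tested, although the untreated tumors were the other side of the contrast that chose the genes.

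YUMM1.7 is a mouse melanoma line with mutant Braf, and it was grown as tumors in C57BL/6 mice. Poly(A) RNA of each biopsy was sequenced in unstranded libraries. In batch 1, 4 tumors were taken before any inhibitor (Veh), 4 while regressing on a BRAF inhibitor (Reg), 5 as residual, cytostatic tumors on it (Res) and 5 as tumors resistant to it (Prog). In batch 2, 3 tumors were resistant to the inhibitor (Prog_b2), 2 were residual under the inhibitor plus anti-PD-L2 antibody (aPDL2_small) and 2 were resistant to both agents (aPDL2_large). Batch 2 held no untreated tumor, and the sources used here do not name the inhibitor. The labels number tumors within a group and do not say whether these came from separate mice, so p-values measure only the spread between these tumors, all grown from 1 cell line.

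Values are FPKM, which relate the fragments of a gene to the length of its transcripts and to the size of the library, as the authors scaled them. Column sums lay between 496435 and 2065749 FPKM, and between 11081 and 12262 genes reached 1 FPKM in a tumor. The microRNA gene Mir2137 alone held 66.1% of the highest sum, that of Veh 3, and 0% of the sum of Reg 1. The pigment cell genes Tyr, Dct and Mlana were below 1 FPKM in every tumor, while Mitf, the regulator of that lineage, lay between 1.64 and 13.9 FPKM. Veh 1, Veh 3 and Res 1 stood apart by skin RNA, with Krt14 at 592, 98.2 and 158 FPKM. Skeletal muscle RNA was higher in Res as a group, with 10 of 10 tested muscle markers called higher than in Veh. In that contrast 45.5% of all genes were called. The muscle genes summed to between 72.3 and 986 FPKM in Res and between 5.75 and 106 in Veh, so single tumors overlapped. In whole tumors, fewer cells that make a transcript and less of it per cell cannot be told apart.

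The prolactin family of the mouse is a large set of hormone genes clustered on chromosome 13. Prolactin itself comes from the pituitary and acts through the receptor Prlr and the kinase and transcription factor pair Jak2 and Stat5. Most of the other members are made by trophoblast and decidua of the placenta, and proliferin, the product of Prl2c2, was first found in growing fibroblasts and acts on blood vessel growth. Exocrine gland-secreted peptides are chemical signals of lacrimal and related glands that mouse vomeronasal neurons detect. Nppb encodes brain natriuretic peptide, a hormone of the heart ventricle that acts through the guanylyl cyclase receptor Npr1 and cyclic GMP.

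Promoter windows from RefSeq, of build GRCm38.p6, covered 250 bases before to 50 bases after the annotated start and matched 6 of the 7 genes, all but Prl2c2. They are shown for 4 of the genes, to set the start regions of genes that were high in the same tumors side by side. Capitals mark a match to TATAAA, to the variant TATATA or to the AP-1 motif, spelled TGANTCA with N for any base, on either strand. The variant was added after the sequences had been seen, and it can overlap TATAAA. The Prl8a9 window lies on the minus strand at chr13:27564557-27564856, the Prl2c3 window on the minus strand at chr13:12800030-12800329, the Esp15 window on the plus strand at chr17:39640707-39641006 and the Nppb window on the plus strand at chr4:147985650-147985949.
Prl8a9: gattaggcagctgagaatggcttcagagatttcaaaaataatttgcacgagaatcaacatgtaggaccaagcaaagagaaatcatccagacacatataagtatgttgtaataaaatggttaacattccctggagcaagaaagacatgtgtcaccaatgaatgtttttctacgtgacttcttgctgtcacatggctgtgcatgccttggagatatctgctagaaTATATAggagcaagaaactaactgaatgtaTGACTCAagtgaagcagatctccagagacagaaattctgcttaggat
Prl2c3: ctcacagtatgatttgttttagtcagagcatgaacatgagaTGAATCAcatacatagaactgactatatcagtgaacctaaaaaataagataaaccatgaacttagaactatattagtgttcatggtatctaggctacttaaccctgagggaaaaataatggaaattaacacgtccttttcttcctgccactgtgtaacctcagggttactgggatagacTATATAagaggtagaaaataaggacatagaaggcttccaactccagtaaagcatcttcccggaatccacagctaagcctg
Esp15: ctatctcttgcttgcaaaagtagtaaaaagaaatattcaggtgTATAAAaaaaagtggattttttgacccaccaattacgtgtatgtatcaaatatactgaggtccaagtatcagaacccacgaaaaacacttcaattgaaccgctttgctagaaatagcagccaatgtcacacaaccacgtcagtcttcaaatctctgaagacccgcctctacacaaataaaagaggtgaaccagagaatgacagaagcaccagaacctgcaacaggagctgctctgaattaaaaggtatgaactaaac
Nppb: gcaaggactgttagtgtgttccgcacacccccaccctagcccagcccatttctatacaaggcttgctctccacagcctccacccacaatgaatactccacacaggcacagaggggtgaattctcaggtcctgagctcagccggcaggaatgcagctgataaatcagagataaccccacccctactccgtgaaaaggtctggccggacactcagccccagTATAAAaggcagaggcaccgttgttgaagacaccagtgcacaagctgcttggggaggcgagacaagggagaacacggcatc

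The TATATA match began at position -27 from the start in Prl8a9, at -30 in Prl2c3 and at -40 in Prl2a1. In Prl6a1 a TATATA match at -29 overlapped a TATAAA match at -27 from the first of 2 annotated starts, or at -41 and -39 from the second, and in Nppb TATAAA began at -31. In Esp15 the TATAAA match was far from the start, at -207. Of 32544 mouse windows of the same length, 13.6% held TATAAA and 5.44% held TATATA. The AP-1 motif in this loose spelling was found in 2 of the 6 windows and in 7.79% of all windows. The match was TGAATCA in Prl2c3, at -209, and TGACTCA in Prl8a9, at 4, so the 2 differ in the middle base. The TEAD motif GGAATG was found in the windows of Nppb, Prl6a1 and Prl8a9 and in 14.6% of all windows, and the motif of GATA factors, spelled AGATAA, in those of Nppb, Prl2c3 and Prl6a1 and in 11.2% of all windows. The window of the near copy Prl2c5 was 95.3% identical to that of Prl2c3 and held no AP-1 match. No window of the 6 held TGACGTCA, the cyclic AMP response motif found in 1.80% of all windows, or CCGGAAG, an ETS motif found in 8.91%. Matches describe the letters of these windows and not binding.

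Prl2c2 encodes proliferin and Prl2c3 a close relative of it. Prl2c2 stood at 11.3, 1.81, 19.9 and 2.17 FPKM in Veh, at 2.68, 53.9, 1.199 and 24.2 in Reg and at 27.5, 4.37, 11.1, 3.78 and 52.4 in Res. In the 5 Prog tumors it stood at 66.3, 407, 157, 81.6 and 175 FPKM. The lowest Prog tumor was above each of the other 20 tumors, and within every other batch 1 group the level varied at least 10.97-fold from tumor to tumor. In batch 2, Prl2c2 reached 2.34, 49.1 and 50.4 FPKM in Prog_b2, 10.7 and 54.5 in aPDL2_small and 3.15 and 29.9 in aPDL2_large. These 7 tumors spread over much the same range as the batch 1 tumors outside Prog.

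Prl2c3 followed Prl2c2 closely, with 12.3, 2.21, 19.4 and 2.30 FPKM in Veh, 2.63, 62.0, 1.008 and 26.6 in Reg and 28.4, 4.58, 11.02, 4.28 and 51.6 in Res. In Prog it stood at 83.9, 531, 199, 99.8 and 224 FPKM. In batch 2 it reached 2.63, 61.2 and 60.3 FPKM in Prog_b2, 9.59 and 62.9 in aPDL2_small and 3.16 and 36.4 in aPDL2_large. All 5 Prog tumors again lay above the other 20. The GENCODE transcripts of Prl2c2 and Prl2c3 share 838 of 842 aligned bases, or 99.5%. The split of fragments between them is therefore uncertain, and Prl2c2 held between 43.4% and 54.3% of their sum in each tumor. RefSeq gives Prl2c4, a separate row of the table, as another name of Prl2c3. Levels averaged 177 ± 136 FPKM for Prl2c2 and 227 ± 180 FPKM for Prl2c3 in Prog (SD, n = 5), against 8.78 ± 8.59 and 9.06 ± 8.37 in Veh (SD, n = 4).

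Prl8a9, a placental member of the family, stood at 27.5, 50.2, 41.4, 23.3 and 112 FPKM in Prog. In Veh it was at 1.13, 0.0930, 0.0891 and 0.202 FPKM, in Reg at 0.864, 0, 0 and 0.0245, and in Res at 0.113, 0, 0.0219, 0.0258 and 0.392. Prog_b2 had 0.0822, 3.02 and 0.527 FPKM, aPDL2_small 0 and 0.176, and aPDL2_large 0.251 and 0.212. Of the 20 tumors outside Prog, 2 reached 1 FPKM and 4 were listed at 0, so the gene was near 0 there, unlike the Prl2c pair. The highest of them was Prog_b2 2, far below the lowest Prog tumor.

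Prl6a1, another placental member, stood at 13.6, 31.8, 17.9, 6.63 and 34.8 FPKM in Prog. In Veh it was at 0.669, 0.125, 0.190 and 0.355 FPKM, in Reg at 1.98, 0.438, 0.118 and 0.442, and in Res at 0.0984, 0.0261, 0.170, 0 and 0.397. Prog_b2 had 2.02, 2.62 and 0.545 FPKM, aPDL2_small 0.218 and 0.147, and aPDL2_large 0.563 and 0.436. The 3 tumors outside Prog that reached 1 FPKM were Reg 1, Prog_b2 1 and Prog_b2 2, and none came near the lowest Prog tumor.

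Prl2a1, also a placental member, was the lowest of the 7 genes, at 1.06, 5.72, 7.20, 3.47 and 6.86 FPKM in Prog. It was listed at 0 in 16 of the other 20 tumors. The remaining values were 0.0566 FPKM in Veh 1, 0.0271 in Res 3, 0.0592 in Prog_b2 3 and 0.0411 in aPDL2_large 1. The groups did not overlap, and no fold is given against levels this close to 0.

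Esp15 stood at 89.9, 86.4, 103, 11.7 and 164 FPKM in Prog, where Prog 4 was far below the other 4. In Veh it was at 0.0495, 0.110, 0.0462 and 0.0990 FPKM, in Reg at 0.938, 0.0508, 0.0408 and 0.0557, and in Res at 0.0991, 0.0657, 0.176, 0.0576 and 0.309. Prog_b2 had 0, 0 and 4.70 FPKM, aPDL2_small 0.0352 and 0.112, and aPDL2_large 0.338 and 0.0744. Prog_b2 3 was the 1 tumor of 20 outside Prog that reached 1 FPKM. Esp15 and its neighbour Esp16 have transcripts that are 96.4% identical, and RefSeq lists Esp16 both as a gene and as another name of Esp15, so their split is uncertain as well.

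Nppb, like the Prl2c pair, was above 1 FPKM in all 25 tumors. It stood at 14.9, 3.41, 49.3 and 10.4 FPKM in Veh, at 298, 5.14, 4.74 and 22.1 in Reg and at 11.8, 6.05, 8.57, 3.77 and 55.3 in Res. Prog had 184, 355, 653, 220 and 613 FPKM. In batch 2 it stood at 47.1, 100.2 and 141 FPKM in Prog_b2, at 8.71 and 695 in aPDL2_small and at 97.8 and 188 in aPDL2_large. Reg 1, aPDL2_small 2 and aPDL2_large 2 overlapped Prog, and aPDL2_small 2 was the highest of all 25 tumors.

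**Figure D1:**
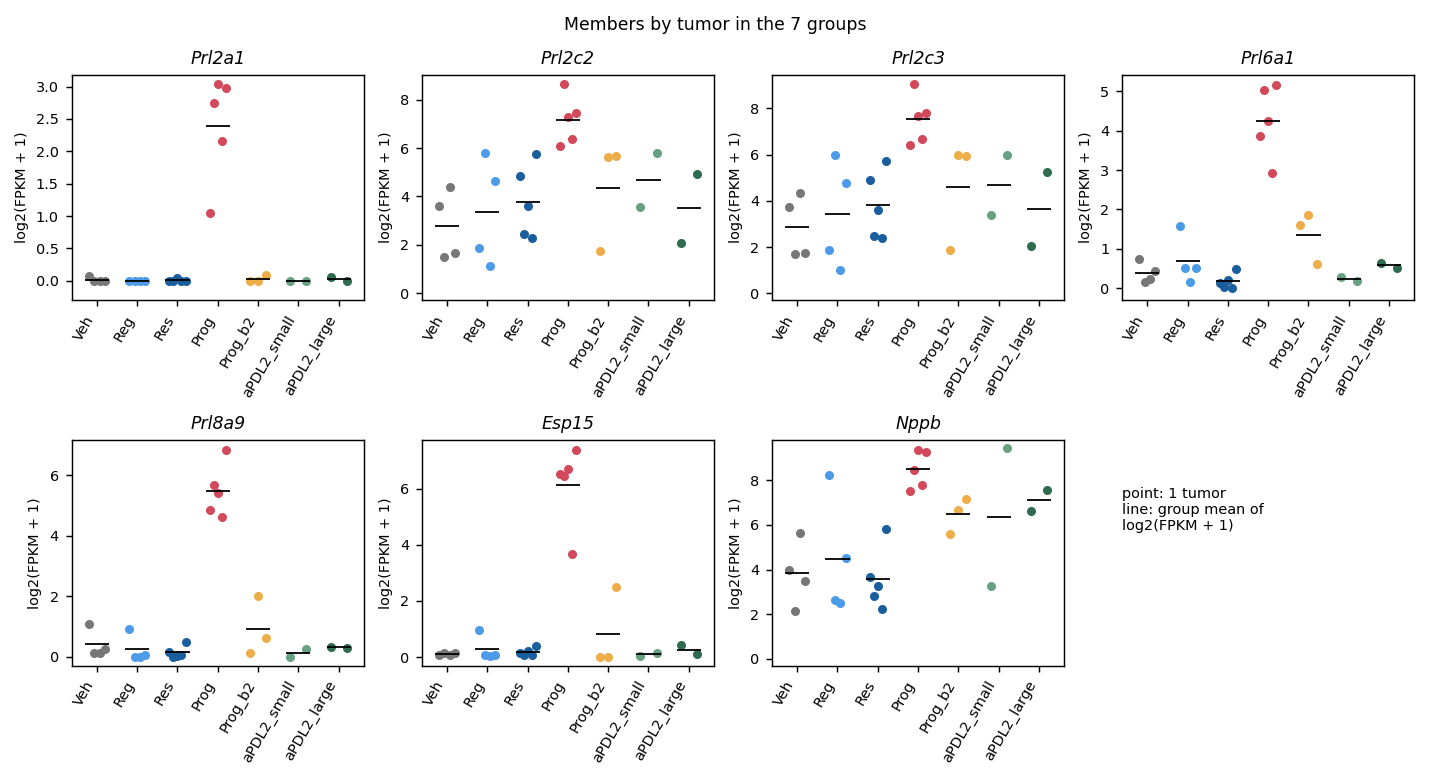
Level of each of the 7 genes as log2(FPKM + 1) on the vertical axis, by group on the horizontal axis, with 1 point per tumor and a line at the group mean. For all genes but Nppb the 5 Prog points lie above the other 20, while Prl2c2, Prl2c3 and Nppb are also expressed outside Prog.

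On the log2(FPKM + 1) scale, which understates the difference of genes near 0, the mean of Prog lay above that of Veh by 6.03 ± 0.50 (SE) for Esp15, 5.07 ± 0.36 for Prl8a9, 4.66 ± 1.02 for Nppb, 4.64 ± 0.99 for Prl2c3, 4.38 ± 0.97 for Prl2c2, 3.85 ± 0.37 for Prl6a1 and 2.37 ± 0.29 for Prl2a1. The median of these 7 differences was 4.64, and the median over all 12210 genes tested was 0.01. All 7 genes passed limma's test in this contrast, where 46.3% of genes did and 25.2% did so with the higher level in Prog, but the contrast had chosen the genes and nothing is read from that. The 5 Prog tumors lay above all Veh tumors for 7 of 7 genes (21.1% of all genes tested), above all Reg tumors for 6 of 7 (17.5%), above all Res tumors for 7 of 7 (29.9%) and above all Prog_b2 tumors for 7 of 7 (10.3%). These counts share the Prog tumors and the choice of genes fixes their direction. Below Prog, every pair of groups next to each other in the order of mean levels overlapped, for each of the 7 genes, and for Nppb the aPDL2_small group overlapped Prog too.

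The 5 resistant tumors of batch 1 did not rank alike for every gene. Counted from the highest, Prog 5 was at rank 1 or 2 for 7 of 7 genes and Prog 4 at rank 4 or 5 for 7 of 7. Prog 2 had the highest Prl2c2 and Prl2c3 but was at rank 3 for Nppb and rank 4 for Esp15. Prog 3 had the highest Prl2a1 and Nppb. From the lowest to the highest Prog tumor, Esp15 varied 14.1-fold, and without Prog 4 its Prog values ran only from 86.4 to 164 FPKM. The range was 4.83-fold for Prl8a9, 5.24-fold for Prl6a1 and 6.78-fold for Prl2a1.

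**Figure D2:**
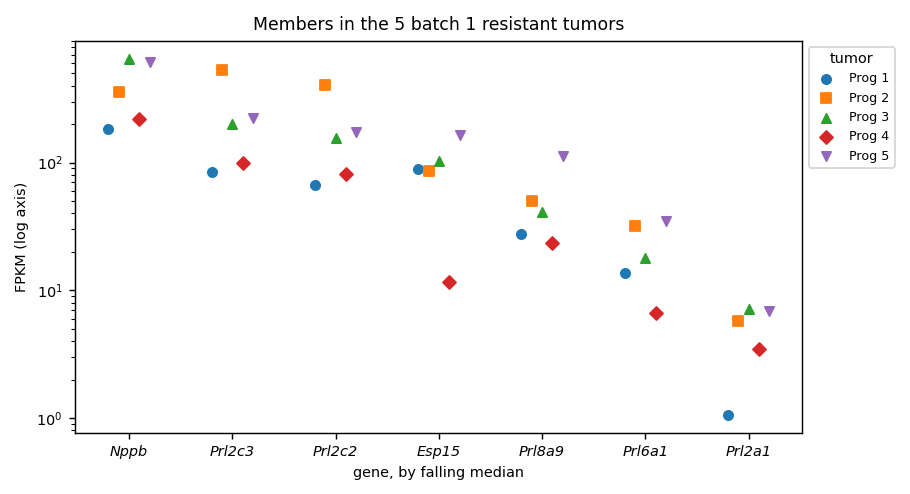
FPKM on a log axis for the 7 genes in the 5 Prog tumors, with genes in falling order of median and 1 symbol per tumor. Prog 4 has the lowest Esp15 at 11.7 FPKM, apart from the other 4 tumors, and Prog 2 the highest Prl2c3 at 531 FPKM.

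Outside the batch 1 resistant tumors, no member that could be tested passed in the reported fit of any comparison, and not all 7 could be tested in each. Prl2a1, Prl6a1, Prl8a9 and Esp15 entered the batch 1 fits only through the Prog tumors, so nothing is read from their not being called. Between Reg and Veh, limma on log2(FPKM + 1) gave adjusted p between 0.783 and 0.987 for the 7 genes, with 2 of 12210 genes called, or 0.0164%, and 1364 genes at an unadjusted p below 0.05. The largest difference was that of Nppb, 0.65 higher in Reg with a 95% confidence interval from -1.63 to 2.93, and without Reg 1 the difference was -0.60. Prl2c2 was 0.57 higher in Reg (interval from -1.59 to 2.74). Intervals this wide hold differences of several-fold either way.

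Between Res and Veh, where 45.5% of genes were called, 0 of the 7 genes was called by limma at adjusted p between 0.427 and 0.977. Prl2c2 was 0.98 higher in Res (95% interval from -1.07 to 3.04) and Nppb 0.26 lower (interval from -2.42 to 1.90). Prl8a9 differed by -0.26, with an interval from -1.01 to 0.49. Between Res and Reg, where 36.4% of genes were called, adjusted p by limma lay between 0.289 and 0.988, and the lowest was that of Prl6a1, at -0.52 with an interval from -1.30 to 0.26. Prl2a1, Prl6a1, Prl8a9 and Esp15 entered these fits, and that of Reg with Veh, only because the Prog tumors brought their means to 1 FPKM. The Prog spread is part of the pooled error, so nothing is read from these genes not being called. With the compared groups fitted alone, 3 members passed the filter. Their lowest adjusted p by limma was 0.387 for Res against Veh, 0.594 for Res against Reg and 0.846 for Reg against Veh. A fit without Prog and without a filter, added after the data were seen, called 0 of the 7 genes too, at adjusted p by limma between 0.0585 and 0.942 over these comparisons and that of Prog_b2 with Veh. The lowest was that of Prl6a1 in Prog_b2 against Veh.

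The resistant tumors of batch 2 were not used to choose the genes. Between Prog_b2 and Veh, 19.6% of genes were called by limma and 0 of the 6 member genes that passed the filter, with Prl2a1 below it. Prl6a1, Prl8a9 and Esp15 passed only because the Prog tumors were in that fit, and their changes are given as values rather than as support. The share of all genes called was not stable, with 525 of 11820 genes called when Prog_b2 and Veh were fitted alone, which left 3 members, and 912 of 12216 without Prog_b2 1. It was 1292 of 12147 without the tumors with high Krt14 and 1584 of 12212 without Veh 2. Nppb was 2.64 ± 1.29 (SE) higher in Prog_b2 on the log2 scale (95% interval from -0.05 to 5.34, adjusted p = 0.153), and 2 of the 3 Prog_b2 tumors lay above all 4 Veh tumors. With Prog_b2 and Veh fitted alone, its adjusted p by limma was 0.0839, the lowest of the 3 members left. Prl2c3 was 1.71 ± 1.25 and Prl2c2 1.57 ± 1.21 higher (adjusted p = 0.349 and 0.379). Prl6a1 was 0.96 ± 0.41 higher (interval from 0.11 to 1.82, adjusted p = 0.103), and without Prog_b2 3 it was 1.33 higher with adjusted p = 0.0385, in a fit that it again entered through Prog. In the later fit without Prog and without a filter, its adjusted p by limma was 0.0585. Esp15 and Prl8a9 were 0.73 ± 0.62 and 0.51 ± 0.44 higher (adjusted p = 0.426 and 0.431). The direction of both rested on 1 tumor, since Esp15 differed by -0.11 without Prog_b2 3 and Prl8a9 by -0.04 without Prog_b2 2. Batch and group cannot be told apart here.

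The single Prog_b2 tumors differed in which genes they held. Prog_b2 3 had 4.70 FPKM of Esp15 but only 0.527 of Prl8a9 and 0.545 of Prl6a1. Prog_b2 2 had 3.02 FPKM of Prl8a9 and 2.62 of Prl6a1, with Esp15 listed at 0. Prog_b2 1 had 2.02 FPKM of Prl6a1 while its Prl2c2, at 2.34 FPKM, was among the lowest of all tumors. No Prog_b2 tumor reached the lowest Prog level of any of the 7 genes.

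Under anti-PD-L2 antibody, Prl2c2, Prl2c3 and Nppb could be tested in batch 2 and the other 4 genes lay below the filter. Between aPDL2_small and Prog_b2, limma called 0% of 11913 genes, with 1399 at an unadjusted p below 0.05, and the 3 genes had adjusted p between 0.938 and 0.983. Between aPDL2_large and Prog_b2 it again called 0%, with 165 genes at an unadjusted p below 0.05 and an adjusted p of 1 for all 3. Between aPDL2_small and aPDL2_large it called 0%, with 946 at an unadjusted p below 0.05 and adjusted p between 0.883 and 0.938. The 2 small tumors were far apart in Nppb, at 8.71 and 695 FPKM, and the interval of the difference from Prog_b2 ran from -4.07 to 3.85 on the log2 scale.

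**Figure D3:**
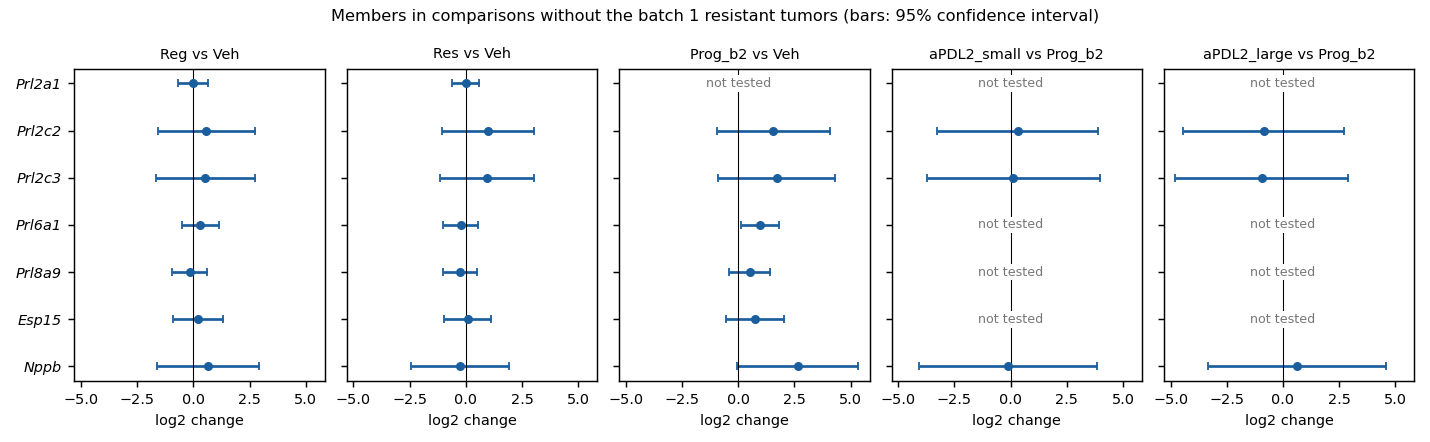
Difference in log2(FPKM + 1) between the groups named above each panel, first minus second, on the horizontal axis for each of the 7 genes, as points with 95% confidence intervals from limma. All intervals include 0 except that of Prl6a1 in Prog_b2 against Veh, whose adjusted p was 0.103.

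The other prolactin family genes of the table were mostly at or near 0. Of 27 family genes, 22 are not among the 5 described above. In the Prog tumors between 10 and 15 of these 22 were above 0, against 1 to 6 in any tumor of the other groups. Each of these counts includes Prl2c4, which was above 0 in every tumor but at most 4.258e-06 FPKM in Reg. Of these 22, 6 reached 1 FPKM in a Prog tumor: Prl3d1, Prl3d2 and Prl3d3, which encode placental lactogen I, Prl2c4, Prl2c5 and Prl7b1. Outside Prog only Prl2c5 did so, at 2.14 FPKM in aPDL2_small 2. None reached a mean of 1 FPKM in batch 1, so none was tested.

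Prl3d3 stood at 0.226, 2.83, 3.25, 0.327 and 6.97 FPKM in Prog and was at most 0.0322 FPKM elsewhere. Prl3d1 stood at 0.124, 2.63, 3.17, 0.333 and 6.50 FPKM in Prog. The Prl3d1 transcript is 98.4% identical to that of Prl3d2 and 98.5% identical to that of Prl3d3, so the split between these genes is uncertain. Prl7b1 stood at 0.0632, 1.28, 0.1001, 0.706 and 1.10 FPKM in Prog and was at most 0.0265 FPKM elsewhere. Prl itself, the pituitary hormone, was at most 0.0330 FPKM in any tumor.

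Summed over the family, the level was 491 ± 344 FPKM in Prog (SD, n = 5), with the lowest tumor at 194 and the highest at 1039, and 18.8 ± 17.1 FPKM in Veh (SD, n = 4). The Prl2c genes made up 69.9% to 90.6% of that sum in Prog and 99.0% to 99.5% in Res. Of all tumors the lowest share was that of Reg 1, at 65.5%, where the sum was only 8.26 FPKM.

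The genes that were high in Prog were not one unbroken block of the chromosome. In RefSeq order, Prl6a1 is followed by Prl8a2, Prl2b1, Prl8a6 and Prl8a8 before Prl8a9, and the mean of these in Prog was 0.0172, 0.00607, 0.0214 and 0.255 FPKM. Between Prl8a9 and Prl2a1 lie Prl8a1, Prl7b1, Prl7a1, Prl7a2, Prl7d1 and Prl7c1, of which Prl7b1 had the highest mean in Prog, at 0.650 FPKM. Hdgfl1, at one end of the group, was near 0, and Sox4, near the other end, averaged 139 FPKM in Prog and 88.5 in Veh. Around Nppb, Nppa, the atrial natriuretic peptide gene, averaged 0.188 FPKM in Prog against 405 for Nppb. Clcn6 averaged 4.42 FPKM in Prog and 3.27 in Veh, and its lowest Prog level, 4.042 FPKM, was just above the highest elsewhere, 4.024. Next to Esp15, Esp16 averaged 6.10 FPKM in Prog and Esp18 0.424, while Esp38, Esp23, Esp24 and Esp31 were listed at 0 in all tumors. Beyond Esp38, Pgk2 and Crisp3 averaged 0 FPKM in Prog. Crisp1, a gene of another family, averaged 0.701 FPKM in Prog and 0.0126 in Veh, and was at most 0.110 outside Prog.

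**Figure D4:**
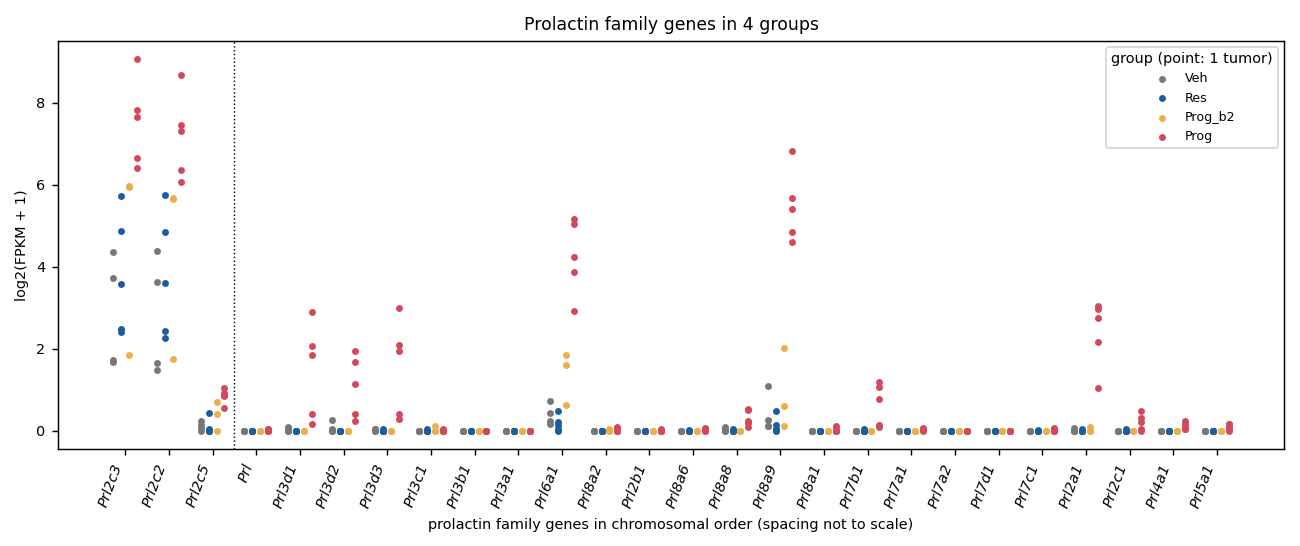
Level of the prolactin family genes as log2(FPKM + 1) on the vertical axis, in chromosomal order on the horizontal axis without true spacing, with 1 point per tumor of Veh, Res, Prog_b2 and Prog. The dotted line parts the Prl2c group from the main group, and genes at or near 0 lie between Prl6a1, Prl8a9 and Prl2a1.

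Genes that act with the members were read in the contrast of Prog with Veh. Over the lists of pathway and tissue genes, 26 genes were called higher and 10 lower of 96 tested, against 25.2% of all genes called higher and 21.1% called lower. The median log2 difference was 0.17 over the tested genes of the receptor and signalling list, -0.10 for the natriuretic, 0.68 for the trophoblast, 0.24 for the AP-1, 0.26 for the YAP and TEAD, 0.81 for the ERK output and 0.75 for the angiogenesis list, beside 0.01 over all genes. The prolactin receptor gene Prlr was at most 0.862 FPKM in any tumor and was not tested. Of 11 tested genes of the receptor and signalling list, 3 were called higher and 2 lower. Socs2, a feedback inhibitor of Stat5 signalling, rose from 4.37 ± 2.16 in Veh (SD, n = 4) to 40.0 ± 7.58 FPKM in Prog (SD, n = 5), a log2 change of 2.99 with adjusted p = 6.47e-07 by limma. It was also high in Prog_b2, at 32.5 ± 8.77 FPKM (SD, n = 3), where no tumor reached the lowest Prog level of any member. Some came near it, with Prl2c2 at up to 50.4 FPKM against 66.3 and Nppb at up to 141 against 184. A link between Socs2 and the members was not tested. The growth hormone receptor gene Ghr rose by 1.28, while Stat5b fell by 0.80 and Stat5a by 0.45 (adjusted p = 0.00192, 0.00422 and 0.0265 by limma).

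In the natriuretic list 3 of 7 tested genes were called higher and 1 lower. Nppc, which encodes C-type natriuretic peptide, rose by 2.69 and Prkg2, a cyclic GMP-dependent kinase, by 2.53 (adjusted p = 0.000274 and 0.000402 by limma). Furin, a protease that cleaves propeptides such as that of Nppb, rose by 0.97, and the kinase Prkg1 fell by 0.94 (adjusted p = 0.00527 and 0.0142). The receptors for natriuretic peptides were not called, with differences of -0.60 for Npr1, -0.10 for Npr2 and -0.92 for Npr3 (adjusted p = 0.112, 0.553 and 0.181 by limma). Nppc was not high in the same tumors as Nppb throughout, since it stood at 56.0 FPKM in aPDL2_large 1 and at 2.19 in aPDL2_large 2, where Nppb was 97.8 and 188.

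Markers of tissues that make these hormones were read as well, and their part in the levels of the members was not tested. Of 24 trophoblast genes, between 6 and 8 reached 1 FPKM in a Prog tumor and between 3 and 5 in a Veh tumor, and their summed level ran from 142 to 175 FPKM in Prog and from 37.1 to 57.9 in Veh. Most of that sum came from genes that other tissues also express: Peg10, an imprinted gene, averaged 86.8 FPKM in Prog and 30.1 in Veh, and Phlda2, another imprinted gene, 34.3 and 0.117. Phlda2, Peg10 and Plet1 were the 3 of 7 tested genes called higher, with log2 changes of 4.79, 1.51 and 1.49 (adjusted p = 1.40e-06, 0.0220 and 0.0466 by limma). Of the regulators and markers on that list, Tpbpa, Hand1 and Gcm1 were at most 0.0249, 0.0414 and 0.133 FPKM in any tumor. Others were higher in Prog: Syna ran from 1.35 to 2.79 FPKM there and from 0.403 to 0.791 in Veh. Psg17, near 0 in both, ran from 0.0605 to 0.0926 FPKM in Prog and from 0 to 0.0195 in Veh. Plac1 overlapped, at 0.35 to 2.35 FPKM in Prog and 0.964 to 2.17 in Veh. Tfap2c, a trophoblast regulator that other tissues also express, ran from 1.03 to 6.56 FPKM in Prog, from 0.490 to 2.57 in Veh and from 0.251 to 9.96 in Prog_b2, and was 0.68 higher in Prog than in Veh with adjusted p = 0.118 by limma. Eomes, which T cells and natural killer cells also express, ran from 0.742 to 2.20 FPKM in Prog and from 0.686 to 1.23 in Veh. The 8 placental cathepsins summed to at most 0.532 FPKM in Prog, and the 8 pituitary genes to at most 0.128. Of 13 lacrimal and salivary genes none reached 1 FPKM in Prog and 10 were listed at 0 in all tumors. Of 10 cardiac genes, 2 could be tested and Tnnt2 was called higher, at 11.3 ± 15.6 FPKM in Prog (SD, n = 5). Myh6, a cardiac myosin gene, was at most 0.00960 FPKM in any tumor. Keratinocyte genes summed to between 5.08 and 9.19 FPKM in Prog and between 6.11 and 1405 in Veh.

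Of the AP-1 genes, whose motif was searched in the windows above, 1 of 10 was called higher and 1 lower. Junb rose by 1.18 and Batf3 fell by 1.17 (adjusted p = 0.00259 and 0.0236 by limma), and Fosl1 was 0.79 higher with adjusted p = 0.213. Of 16 tested genes that report ERK output, 8 were called higher and 1 lower. The phosphatase gene Dusp6 rose by 1.16 in Prog (adjusted p = 0.000926) and by 1.80 in Prog_b2 (adjusted p = 0.000333), so it was high in both sets of resistant tumors. Of 11 genes of YAP and TEAD signalling, Tead4 and Wwtr1 were called higher and Tead3 lower. Of 12 angiogenesis genes, 4 were called higher and 3 lower, with Thbs1, an inhibitor of vessel growth, at 2.38 higher and Vegfb at -1.21 (adjusted p = 2.96e-05 and 1.16e-05 by limma).

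Genes with the pattern most like that of the members were ranked by Pearson correlation of log2(FPKM + 1) over the 25 tumors, among 11504 genes. These values are descriptions, since all points share the 5 high Prog tumors. Closest to the mean of the members were Col23a1 (r = 0.946), Ankrd66 (0.936), Esp16 (0.935), Braf (0.922) and Dynap (0.921). Esp15 was closest to Esp16 (0.982) and Braf (0.966), Prl8a9 to Esp16 (0.968) and Mrps33 (0.958), Prl6a1 to Esp16 (0.957) and Dynap (0.952), and Prl2a1 to Esp16 (0.946) and Mrps33 (0.935). Braf, the kinase gene that the inhibitor is aimed at, stood at 51.3, 43.5, 44.4, 31.9 and 49.7 FPKM in Prog and between 3.52 and 7.35 FPKM in the other 20 tumors. Mrps33, a mitochondrial ribosomal protein gene, stood at 322, 359, 328, 184 and 296 FPKM in Prog and between 30.7 and 50.3 elsewhere. Prog 4 was the lowest of the 5 Prog tumors for Braf and Mrps33, as it was for Esp15, Esp16, Prl6a1 and Prl8a9. At the other end the ranks differed, since Prog 1 had the highest Braf, at 51.3 FPKM. It was at rank 3 for Esp15, rank 4 for Prl6a1 and Prl8a9, and rank 5 for Prl2a1, Prl2c2, Prl2c3 and Nppb.

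Nppb had other nearest genes. Dusp4, a phosphatase of ERK, and Prss12 both had r = 0.929 with it. Dusp4 stood at 41.1 FPKM in Reg 1, where Nppb was 298, and between 4.72 and 6.61 in the other Reg tumors. In aPDL2_small 2, where Nppb was 695, Dusp4 was 121 FPKM, against 3.84 in aPDL2_small 1. Prss12 stood at 24.0 and 22.8 FPKM in Reg 1 and aPDL2_small 2 and at 0.474 in aPDL2_small 1. The tumors in which Nppb was high outside Prog were thus also those with high Dusp4, and Dusp4 was 2.54 higher in Prog_b2 than in Veh (adjusted p = 0.0246 by limma).

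**Figure D5:**
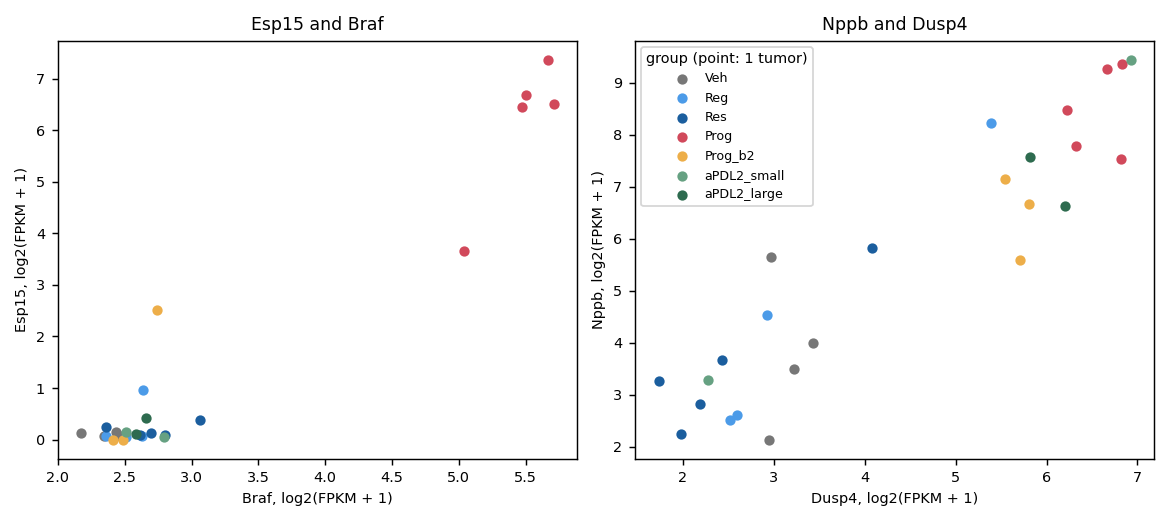
log2(FPKM + 1) of Esp15 against Braf and of Nppb against Dusp4, with 1 point per tumor coloured by group. Esp15 and Braf part the Prog tumors from all others, while Nppb and Dusp4 spread over all groups, with Reg 1 and aPDL2_small 2 among the high tumors.

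Prl2c2 and Prl2c3 were closest to Hilpda, a lipid droplet gene of the hypoxia response (0.793 for both), and Nxn (0.788 and 0.780). Hilpda was 73.7 FPKM in Prog_b2 2 and 46.0 in Res 5, tumors in which Prl2c2 was 49.1 and 52.4 FPKM. It was 15.4 FPKM in Reg 2 and 13.8 in Reg 4, where Prl2c2 was 53.9 and 24.2, and between 13.8 and 20.7 FPKM in Veh, so the genes did not go together in every tumor. Among the members, Prl2a1, Prl6a1, Prl8a9 and Esp15 correlated at 0.918 to 0.972 with one another over 25 tumors, and Nppb and the Prl2c pair at 0.607 to 0.727 with the rest. Over the 13 batch 1 tumors without Prog, Prl2c3 and Nppb had r = 0.178, and over the 7 batch 2 tumors 0.572. Prl2c2 and Prl2c3 had r = 0.998 in both sets.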

How the data were processed

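The authors' deposited table holds FPKM per gene symbol for the 25 tumors. Per the submitters' processing notes, TopHat, TopHat2, Cuffnorm and Cuffdiff were used with build mm9; the sources used here give neither versions nor what each tool did. In 9 of the batch 1 columns about 50% of values ended in a seventh digit, as a mean of a pair of values would. These were Veh 1, Veh 2, Veh 4, Res 1, Res 3, Res 5, Prog 2, Prog 4 and Prog 5, with no Reg column among them. Whether this bears on the spread between tumors was not tested. No read counts were used, so the depth behind a value is unknown, and whether reads of near-identical copies were shared out is not stated.

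The test was limma 3.58.1 (R 4.3.3) on log2(FPKM + 1), with group as the sole factor and the prior variance following expression, for genes with a mean of at least 1 FPKM over the tumors of a fit. Batch 1 and batch 2 were fitted apart, and Prog_b2 against Veh over all tumors. All tests were two-sided. Called genes had a Benjamini-Hochberg adjusted p, taken over every tested gene, below 0.05. Levels, correlations and motif counts used Python 3.11.15 with pandas 2.3.3, and the limma step was tested on simulated data.

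The members and lists were chosen with earlier results of these data known. Named were the members, the family, up to 4 genes per list with the smallest adjusted p in Prog against Veh, the genes most correlated with the members, and Dusp6 and Fosl1; other neighbours, receptors and defining markers were named after their values were seen. Alternatives were another pseudocount, no filter, size factors, a replicate block, the compared groups alone, summed Prl2c genes, no tumors with high Krt14, each tumor left out, and, added later, no Prog tumors.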

Additional observations from a re-analysis of the deposited data

Results flagged for a closer look

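Of 27 groups of 4 or 5 tumors in which a member was above 0, 6 held 1 tumor that stood apart from the rest by its gap relative to the range, and chance flags about 1 in 20 groups. Esp15 in Prog 4 was 11.7 FPKM, below the other 4 Prog tumors at 86.4 to 164. Esp15 in Reg 1 was 0.938 FPKM and Prl8a9 in Reg 1 was 0.864 FPKM, each above the other 3 Reg tumors; Reg 1 also had the highest Nppb of its group, at 298 FPKM, but one of the lower Prl2c2 levels, at 2.68 FPKM. Prl8a9 in Veh 1 was 1.13 FPKM and Prl2a1 in Veh 1 was 0.0566 FPKM, in the tumor with the highest Krt14, at 592 FPKM, whose part in these levels was not tested. Prl2a1 in Res 3 was 0.0271 FPKM, with the other 4 Res tumors listed at 0. In both Prl2a1 groups all other tumors were at 0, so that any value above 0 would have stood apart, and the chance rate says nothing of these 2.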

How the results depend on the processing

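The 36 tested changes of the members were recomputed as 507 alternative values, of which 1 moved across the threshold: Prl6a1 in Prog_b2 against Veh without Prog_b2 3. The number of members called in Prog_b2 against Veh was therefore between 0 and 1 when tumors were left out in turn, and in the other comparisons it was 0 under every alternative. Among changes not called in either setting, 37 values of 24 changes had the other sign; the largest such change was 1.17 in size in the reported fit. The median difference of the members between Prog and Veh, a description, ran from 4.10 to 5.60, and the list genes called in that contrast from 30 to 41. With the replicate block, 0 members were called in each comparison and 34 list genes instead of 36. The replicate numbers did not pair the tumors: 5 of 21 same-numbered pairs correlated best with their own number, with correlations between -0.517 and 0.374 over the comparisons. Size factors lay between 0.954 and 1.04 and moved the median of all genes by at most 0.07. Without Prog_b2 3 the Prl6a1 change rested on 2 tumors of that group. As the depth is unknown, no counting error can be set beside levels near 0.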

Other observations

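Sox10, a melanocyte lineage gene, was at 140 FPKM in aPDL2_small 2 and 188 FPKM in aPDL2_large 1, and at most 10.7 FPKM in the other 23 tumors. Nppc was at 227 and 56.0 FPKM in the same tumors and at most 30.3 FPKM elsewhere. Nppb was at 695 and 97.8 FPKM in them. Both genes were picked after their values had been seen.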
